A study of Mus musculus with 6 samples.

Results

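The B cell lineage genes are 9 genes that give B lymphocytes their identity and their receptors: Ebf1, Pax5, Cr2, Ms4a1, Cd79a, Cd79b, Blnk, Blk and Fcer2a. They were taken by symbol from a table of 27095 promoter windows, 1 window per gene, and each of the 9 had its window. The windows were read out by ATAC-seq, an assay in which a transposase inserts sequencing adapters wherever chromatin is open, so that the number of reads over a promoter reports how accessible it is and not how much RNA the gene makes. The cells were medullary thymic epithelial cells (mTECs) with high MHC class II on their surface, epithelial cells of the thymus that display self-antigens to developing T cells. Libraries came from 3 Kat7 knockout mice and from 3 wildtype mice, all on the C57BL/6 background. Kat7 encodes a histone acetyltransferase, and the comparison asks which of these promoters lose or gain accessibility in mTECs without it. The sources used here do not give the age of the mice or the driver and extent of the deletion.

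B cells arise from lymphoid progenitors under a hierarchy of transcription factors, in which EBF1 specifies the lineage and switches on PAX5, and PAX5 then commits the cell and keeps other fates closed. Their products act at the B cell receptor, where CD79A and CD79B carry the signal of surface immunoglobulin to the kinase BLK and the adaptor BLNK, while CD21 (from Cr2), CD23 (from Fcer2a) and CD20 (from Ms4a1) mark mature B cells. Epithelial cells do not belong to this lineage, but mTECs are known for opening and transcribing many genes of other tissues, and the thymic medulla also holds B cells.

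Most of these promoters were less accessible without Kat7. In knockout mTECs the windows of 6 genes fell (Ebf1, Cr2, Cd79b, Pax5, Blk and Fcer2a), that of Blnk rose, and those of Cd79a and Ms4a1 did not pass the test. Ebf1 kept 33.9% and Cr2 38.1% of the wildtype level, while the other 4 that fell kept between 55.1% and 66.3%, and Blnk reached 128.2%. Over all 24817 windows tested, 20.2% were lower and 6.36% higher in knockout (5011 and 1578 windows). Other scalings split the calls differently, into 4880 lower and 4324 higher after loess normalization, which centres the change at each level of accessibility, and 5317 lower and 2937 higher with library totals alone. After loess normalization 3 of the 9 genes were lower (Ebf1, Cr2 and Cd79b) and Blnk was higher. The number of higher windows was 689 without wildtype library 1 and 3177 without knockout library 1. The test was edgeR's quasi-likelihood test with Benjamini-Hochberg adjustment over all windows at 0.05, and every adjusted p below comes from it unless another is named. Separation of the libraries gave a similar count, with every knockout library below every wildtype library at 7 of the 9 genes, against 24.6% of all windows, and every knockout library above at 1 gene, against 13.5%. The median log2 fold change of knockout over wildtype was -0.61 over the 9 genes and 0.04 over all windows. After loess normalization these medians were -0.18 and 0.02.

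The libraries held 15482439 to 19832326 counts, and every level below is in CPM after TMM scaling, which corrects for library size and assumes most windows do not change. The floor for a window without counts, set at 3 counts, equalled 0.154 to 0.192 CPM and covers counting error only. As a second low reference, olfactory receptor windows had medians of 0.745, 1.43 and 1.59 CPM in knockout libraries 1 to 3. In wildtype libraries 1 to 3 their medians were 0.641, 0.895 and 1.00 CPM. Their median log2 fold change was 0.54, and that of the lowest quartile of all windows by mean level was 0.37. The window of Kat7 held 11.9, 13.2 and 38.3 CPM in knockout libraries 1 to 3 and 290.7, 238.3 and 272.1 CPM in wildtype libraries 1 to 3, as the labels have it (log2 fold change -3.66, SE 0.574, adjusted p = 0.0143). That adjusted p was 0.0643 without wildtype library 1 and 0.0565 without wildtype library 3. The median window of 14 mTEC markers held 131.2 to 155.7 CPM in knockout libraries and 123.4 to 124.9 CPM in wildtype libraries. The median over all windows was 7.79 to 8.44 CPM in knockout and 11.6 to 12.1 CPM in wildtype. These levels do not establish epithelial identity, since some of the markers, such as H2-Aa and H2-Ab1, are not particular to epithelial cells. Cd52, a pan-leukocyte marker, was as open at a mean of 136.0 CPM, while the median window of its list held 13.0 CPM. Of the 14 mTEC markers 1 was lower and 2 were higher in knockout, beside 20.2% lower and 6.36% higher over all windows. Among the higher was Foxn1, the master factor of thymic epithelium (log2 fold change 1.69, adjusted p = 4.98e-36).

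Markers of other cells that a sort can carry along moved in different directions. Their counts stand beside 20.2% lower and 6.36% higher over all windows. Of 10 pan-leukocyte markers 1 was lower and 2 were higher in knockout, and their summed level was 310.8 to 386.4 CPM in knockout libraries and 356.5 to 377.5 CPM in wildtype libraries, which overlap. Ptprc, the gene of the leukocyte antigen CD45, was at 3.84, 2.99 and 4.04 CPM in knockout libraries and 1.28, 2.56 and 2.07 CPM in wildtype libraries. Coro1a, an actin-binding protein of leukocytes, went the other way in the same list, at 15.2, 12.3 and 14.1 CPM in knockout libraries and 34.4, 22.4 and 27.0 CPM in wildtype libraries (log2 fold change -1.02, adjusted p = 1.92e-15). The adjusted p of Ptprc, 0.0148, rose to 0.193 without wildtype library 1. Of 11 thymocyte markers 8 were tested, and 3 were higher and 0 lower (edgeR at the same threshold), with sums of 32.3 to 40.7 CPM in knockout and 28.2 to 30.8 CPM in wildtype. Of 12 myeloid and dendritic markers 4 were lower and 1 higher, with sums of 264.6 to 319.7 CPM in knockout and 271.4 to 282.6 CPM in wildtype. Mesenchymal markers (4 lower and 2 higher of 9) summed to 123.0 to 128.7 CPM in knockout and 152.8 to 158.8 CPM in wildtype, and endothelial markers (2 lower and 1 higher of 8) to 37.8 to 42.9 CPM in knockout and 48.4 to 49.5 CPM in wildtype. The B lineage genes themselves summed to 285.9 to 332.6 CPM in knockout and 340.1 to 348.2 CPM in wildtype, sums that Blnk dominates. The other 8 without Blnk summed to 77.8 to 78.9 CPM in knockout and 164.4 to 174.1 CPM in wildtype. No marker was at 0 in any library. The thymocyte markers left untested were below the count filter, with levels down to 0.115 CPM, under the floor for a window without counts. A level above 0 is therefore not by itself a sign of such cells, and their part in the results was not tested. In bulk libraries, fewer cells with an open promoter and less accessibility per cell cannot be told apart.

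Promoter sequences help to place the windows, which ran from 3000 bases before to 2000 bases after a gene start and were 5001 bases long for all 9 genes. RefSeq on build GRCm38.p6 gave promoters of 300 bases, from 250 before to 50 after the start, for 6 of the 9 genes (Ebf1, Pax5, Cr2, Cd79a, Blnk and Fcer2a). Further promoters of Ebf1 and Fcer2a, 2094 to 3784 bases from the start that the window implies, were not wholly inside it and were left out. The starts used for Pax5 and Blnk lay 254 and 314 bases from the implied start. The 5 promoters below are those of genes whose windows changed, printed 5′ to 3′ on the gene's strand with each CpG, the dinucleotide at which DNA is methylated and which marks broadly used promoters, in capitals.
Ebf1, chr11:44617850-44618149, plus strand: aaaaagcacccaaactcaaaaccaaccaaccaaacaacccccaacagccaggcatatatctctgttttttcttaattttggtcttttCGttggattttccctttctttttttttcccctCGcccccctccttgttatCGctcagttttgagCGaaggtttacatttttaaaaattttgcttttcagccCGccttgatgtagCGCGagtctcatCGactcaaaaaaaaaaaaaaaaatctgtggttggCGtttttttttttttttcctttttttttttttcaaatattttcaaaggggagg
Pax5, chr4:44710645-44710944, minus strand: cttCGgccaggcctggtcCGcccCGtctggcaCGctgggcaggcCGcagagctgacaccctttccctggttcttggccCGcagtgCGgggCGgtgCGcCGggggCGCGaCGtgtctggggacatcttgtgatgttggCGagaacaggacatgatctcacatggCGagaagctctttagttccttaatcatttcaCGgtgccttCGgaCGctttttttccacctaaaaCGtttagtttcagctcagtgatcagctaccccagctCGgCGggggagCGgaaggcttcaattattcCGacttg
Cr2, chr1:195176670-195176969, minus strand: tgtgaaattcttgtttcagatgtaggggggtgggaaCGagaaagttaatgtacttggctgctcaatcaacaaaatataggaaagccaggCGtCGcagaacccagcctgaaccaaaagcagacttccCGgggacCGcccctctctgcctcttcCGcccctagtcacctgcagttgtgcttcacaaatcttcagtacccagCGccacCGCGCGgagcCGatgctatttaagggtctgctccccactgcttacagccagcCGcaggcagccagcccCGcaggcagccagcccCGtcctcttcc
Fcer2a, chr8:3694125-3694424, minus strand: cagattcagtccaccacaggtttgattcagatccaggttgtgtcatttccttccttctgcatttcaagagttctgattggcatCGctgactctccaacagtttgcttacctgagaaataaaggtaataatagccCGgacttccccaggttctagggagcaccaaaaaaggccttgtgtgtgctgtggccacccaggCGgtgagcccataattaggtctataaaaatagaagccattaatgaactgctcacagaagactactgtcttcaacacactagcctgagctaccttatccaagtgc
Blnk, chr19:40994172-40994471, minus strand: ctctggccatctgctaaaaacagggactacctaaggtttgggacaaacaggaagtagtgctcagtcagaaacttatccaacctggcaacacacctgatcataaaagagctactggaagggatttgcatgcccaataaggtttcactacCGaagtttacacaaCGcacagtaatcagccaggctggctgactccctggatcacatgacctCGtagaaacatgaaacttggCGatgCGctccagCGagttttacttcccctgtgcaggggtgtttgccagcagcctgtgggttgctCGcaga

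CpG content differed widely among them. The Pax5 promoter held 23 CpGs, that of Cr2 14, that of Ebf1 9, that of Cd79a 8, that of Blnk 7 and that of Fcer2a 3, beside a median of 7 over 32851 RefSeq promoters. The Ebf1 promoter was also rich in A and T, with a GC content of 36.7%, against 46.0% to 59% for the other 5. Among all tested windows that contained a promoter, 16.4% were lower in knockout with 0 to 4 CpGs, 31.3% with 5 to 9, 23.1% with 10 to 19 and 16.6% with 20 or more. The genes that fell thus came from each of these classes, and the only gene that rose, Blnk, shared the class of 5 to 9 CpGs with Ebf1.

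Motifs of B lineage factors were looked for on both strands of the 6 promoters. A strict form of the EBF core, CCCNNGGG, present in 13.7% of all promoters, and the E-box form CAGCTG bound by E proteins, present in 16.3%, were in none of the 6. The octamer ATGCAAAT, read by OCT factors and present in 1.74% of all promoters, was found in the Blnk promoter at position -130 from the start, on the reverse strand of the sequence printed above. The letters GAGGAA of ETS-family sites, in 28.3% of all promoters, lay at position -140 in the Cd79a promoter, and a TATA box, TATAAA, in 13.6% of all promoters, at position -33 in the Fcer2a promoter. These matches describe letters and not bound sites. Looser forms of the EBF and ETS sites were not searched, so missing letters do not show that a promoter lacks such sites.

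Ebf1 (gene ID 13591, window chr11:44615134-44620134, mm10) showed the deepest loss of the 9 genes. It encodes the factor that specifies the B lineage, and it is also known from fat and stromal cells. Its window held 21.5, 20.2 and 23.3 CPM in knockout libraries 1 to 3, and 64.6, 62.6 and 64.3 CPM in wildtype libraries 1 to 3. The groups lay far apart relative to their own spread, at 21.7 ± 1.56 CPM in knockout and 63.9 ± 1.07 CPM in wildtype (SD, n = 3 each). The counts behind these levels were 338 to 381 in knockout and 980 to 1261 in wildtype. The log2 fold change was -1.56 (SE 0.116, adjusted p = 4.33e-39).

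Pax5 (gene ID 18507, window chr4:44708440-44713440, mm10), the commitment factor that acts after EBF1, fell to 62.4% of the wildtype level. Its window held 11.7, 12.2 and 10.03 CPM in knockout libraries and 17.5, 20.004 and 16.9 CPM in wildtype libraries. All knockout libraries were below all wildtype libraries, and the log2 fold change was -0.68 (SE 0.131, adjusted p = 2.38e-06). After loess normalization it was -0.24 with an adjusted p of 0.136 and no longer passed.

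Of the partner chains of the B cell receptor, Cd79b passed the test and Cd79a did not. Cd79b (gene ID 15985, window chr11:106312529-106317529, mm10) held 9.86, 10.5 and 11.7 CPM in knockout libraries and 19.4, 18.98 and 19.7 CPM in wildtype libraries. It fell in knockout, with no overlap between the groups (log2 fold change -0.86, SE 0.131, adjusted p = 8.54e-10), and loess normalization left -0.43, still past the threshold (adjusted p = 0.00576). Cd79a (gene ID 12518, window chr7:24894511-24899511, mm10) was barely open, at 3.95, 4.12 and 3.61 CPM in knockout libraries and 4.41, 4.41 and 4.55 CPM in wildtype libraries. Although each knockout library lay below each wildtype library, the difference did not pass (log2 fold change -0.19, SE 0.231, adjusted p = 0.585), and it rested on 59 to 86 counts a library. Within each library the Cd79b window had 2.49, 2.54 and 3.24 times the count of the Cd79a window in knockout, and 4.40, 4.30 and 4.32 times in wildtype. This ratio, chosen after the values were seen, differed by -0.67 on the log2 scale between knockout and wildtype (exact two-sided permutation p = 0.1, the smallest that 3 against 3 libraries allow).

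Behind the receptor, the adaptor and the kinase went opposite ways. Blnk (gene ID 17060, window chr19:40992535-40997535, mm10), the scaffold that links SYK to calcium signalling, had by far the most open window of the 9 and the only one that rose. It held 254.8, 210.9 and 207.1 CPM in knockout libraries and 165.9, 183.7 and 175.0 CPM in wildtype libraries. The groups did not overlap, and knockout library 1 stood above the other knockout libraries. The log2 fold change was 0.36 (SE 0.127, adjusted p = 0.0208), but without wildtype library 1 it was 0.32 and did not pass (adjusted p = 0.171).

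Blk (gene ID 12143, window chr14:63415187-63420187, mm10), a Src-family kinase of the B lineage, held 4.47, 5.55 and 5.50 CPM in knockout libraries and 7.74, 7.54 and 8.45 CPM in wildtype libraries. It fell with no overlap between the groups (log2 fold change -0.61, SE 0.181, adjusted p = 0.00391), on 78 to 151 counts a library. The call ended after loess normalization, at -0.18 (adjusted p = 0.347), and without wildtype library 3, at an adjusted p of 0.0635.

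Of the 3 surface receptors among the 9 genes, Cr2 had the largest log2 fold change. It encodes CD21, the receptor for complement fragments that lowers the threshold of B cell activation and that follicular dendritic cells also carry (gene ID 12902, window chr1:195174715-195179715, mm10). Its window held 17.1, 16.0 and 15.3 CPM in knockout libraries and 46.9, 38.8 and 41.3 CPM in wildtype libraries. The lowest wildtype library was above every knockout library by a wide margin, at group means of 16.1 ± 0.931 CPM in knockout and 42.3 ± 4.17 CPM in wildtype (SD, n = 3 each). The log2 fold change was -1.39 (SE 0.117, adjusted p = 9.12e-31).

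CD21 acts together with CD81, a tetraspanin of many cell types, and the window of Cd81 was lower in knockout as well. The window of Cd81 shares bases with another gene's, and how reads over shared bases were counted is not given in the sources used here. It held 0.630, 1.08 and 1.65 CPM in knockout libraries and 4.10, 4.15 and 3.07 CPM in wildtype libraries. Its log2 fold change was -1.76 (SE 0.341, adjusted p = 2.46e-06), with no overlap between the groups. The knockout levels of Cd81 lay near the median of olfactory receptor windows, 0.745, 1.43 and 1.59 CPM in the same libraries. The size of its fold change therefore rests on levels at the low end of the windows.

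Fcer2a (gene ID 14128, window chr8:3692174-3697174, mm10) encodes CD23, the low-affinity receptor for IgE. Its window held 7.11, 7.76 and 6.60 CPM in knockout libraries and 11.1, 9.59 and 11.8 CPM in wildtype libraries. It fell without overlap of the groups (log2 fold change -0.59, SE 0.156, adjusted p = 8.61e-04), and loess normalization left -0.12, which did not pass (adjusted p = 0.520). Ms4a1 (gene ID 12482, window chr19:11264151-11269151, mm10), the gene of CD20, had the least accessible window of the 9, at 2.12, 2.57 and 2.75 CPM in knockout libraries and 2.46, 2.49 and 2.30 CPM in wildtype libraries. The groups overlapped (log2 fold change 0.03, SE 0.323, adjusted p = 0.953), and at 37 to 48 counts a library a change of the size seen at Fcer2a was less than 2 standard errors.

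**Figure D1:**
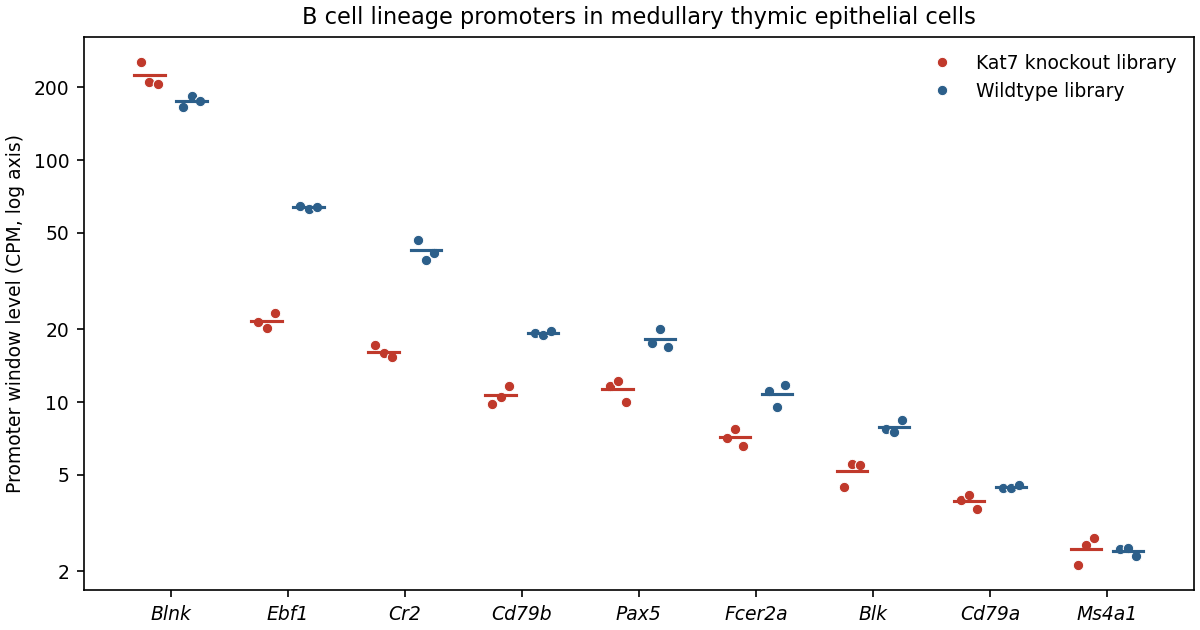
Level of each of the 9 promoter windows in CPM on a log axis, with 1 point per library, knockout left of wildtype, and a bar at the mean of 3 libraries. Knockout and wildtype points are apart at 8 genes and mixed at Ms4a1, and Blnk alone has its knockout points on top.

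The order of the levels was much the same in both groups apart from Pax5 and Cd79b, which changed places. All 9 windows have the same length, so levels can be set side by side per kilobase. In knockout the mean was 44.8 CPM per kilobase at Blnk, 4.33 at Ebf1, 3.23 at Cr2, 2.26 at Pax5, 2.13 at Cd79b, 1.43 at Fcer2a, 1.03 at Blk, 0.779 at Cd79a and 0.496 at Ms4a1. In wildtype it was 35.0 CPM per kilobase at Blnk, 12.8 at Ebf1, 8.47 at Cr2, 3.87 at Cd79b, 3.63 at Pax5, 2.16 at Fcer2a, 1.58 at Blk, 0.891 at Cd79a and 0.484 at Ms4a1. The libraries of Pax5 and Cd79b overlapped within each group, whereas those of every other pair of neighbours in the order did not. Ebf1 and Cr2 lay between Blnk and the rest in wildtype and came much closer to the rest in knockout.

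How often a window fell depended on its level, which sets the frame for these counts. In the second quartile of all windows by mean level, 32.5% were lower and 4.58% higher in knockout; it held Ms4a1, Cd79a, Blk and Fcer2a, of which Blk and Fcer2a fell. In the third quartile 43.2% were lower and 9.28% higher; it held Ebf1, Pax5, Cr2 and Cd79b, which all fell. In the top quartile 3.72% were lower and 9.32% higher, and it held Blnk. A loss at a window of middle level was therefore common in these libraries.

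**Figure D2:**
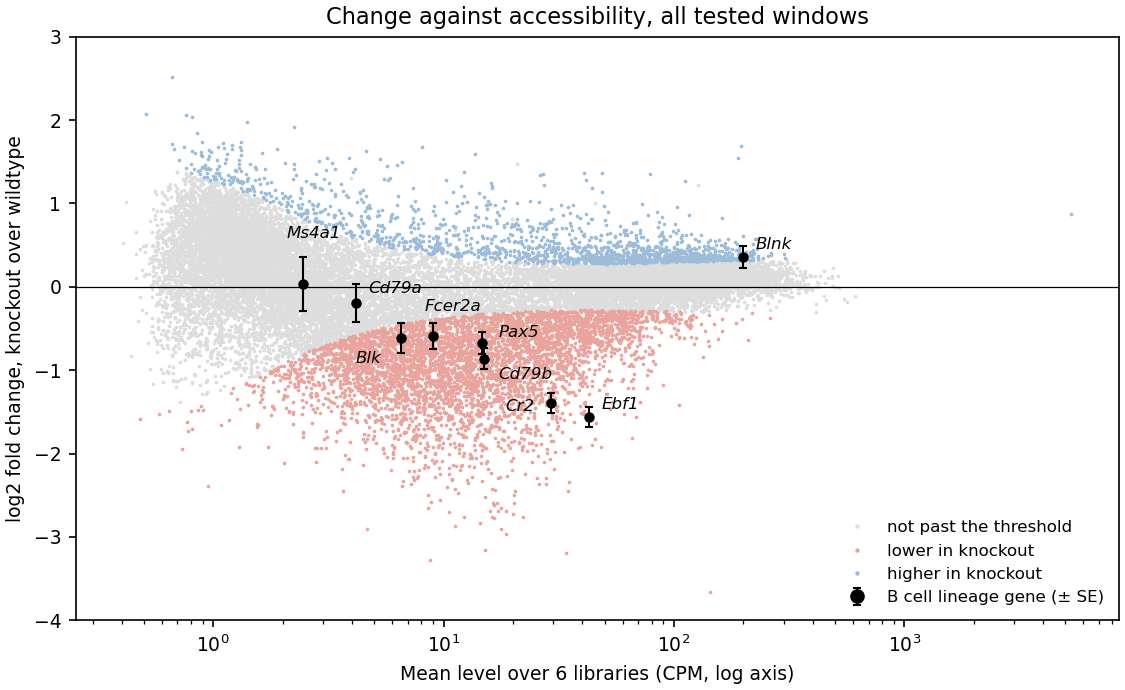
Log2 fold change of knockout over wildtype against mean level in CPM (log axis) for the 24817 tested windows, with the 9 B lineage genes as black points and bars of 1 SE. Ebf1 at -1.56 and Cr2 at -1.39 lie low in the cloud of windows that fell, Blnk at 0.36 lies among the most accessible windows, and Cd79a and Ms4a1 have wide bars at the low end.

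Of 16 other transcription factors of the lineage, 4 were lower, 1 was higher and 11 did not pass, with all windows at 20.2% lower and 6.36% higher, and with a median log2 fold change of -0.00. Those that fell were Lef1, a factor of Wnt signalling that early B cells use (log2 fold change -0.92, adjusted p = 2.07e-14), Bach2, which restrains plasma cell fate (-0.83, adjusted p = 1.83e-07), Irf4, which drives it (-0.76, adjusted p = 1.79e-09), and Spi1, the gene of PU.1 (-0.67, adjusted p = 0.0338). The last passed under 7 of 15 alternatives, while the others passed under all 15, although loess normalization left Bach2 at -0.36 (adjusted p = 0.0350). Bcl6, the factor of germinal centre B cells, rose (0.40, adjusted p = 0.00449), though without wildtype library 1 the adjusted p was 0.116. Spib (-0.06), Id3 (0.14) and Tcf3 (0.13) did not pass. Tcf3 encodes the E proteins that act before EBF1.

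Of 20 genes of the antigen receptor and its signalling chain, 19 were tested, with 1 lower, 3 higher and 15 not past the threshold. Of all 24817 windows, 20.2% were lower, 6.36% were higher and 18228 did not pass. The median log2 fold change was 0.21. Pik3ap1, the adaptor BCAP that brings PI3 kinase to the receptor, fell (log2 fold change -0.61, adjusted p = 3.62e-05), with -0.17 after loess normalization (adjusted p = 0.251). Syk, the kinase that phosphorylates BLNK, rose (0.44, adjusted p = 7.79e-04), as did Vav1, an exchange factor that binds BLNK (0.35, adjusted p = 0.00823), and Igll1, a surrogate light chain gene (0.36, adjusted p = 0.0206). The call of Syk held under all 15 alternatives, that of Vav1 under 14 and that of Igll1 under 11 (0.78 after loess normalization), and both of the last were lost without wildtype library 1. Syk held 82.0, 67.7 and 58.6 CPM in knockout libraries and 49.96, 54.4 and 49.6 CPM in wildtype libraries. Every knockout library was above every wildtype library at Syk and at Blnk, the gene of its substrate, as was the case at 13.5% of all windows. Both were highest in knockout library 1, whose TMM factor was 0.884, against 1.04 and 1.06 in knockout libraries 2 and 3. That was not particular to them, since the median mTEC marker window also held 155.7 CPM there, against 131.2 and 132.0 CPM in libraries 2 and 3. Whether the windows of Syk and Blnk changed together was not tested. Ptpn6 (-0.08), Lyn (-0.19) and Plcg2 (-0.07) did not pass.

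Surface receptors of B cells changed in both directions. Of 18 tested, 8 were lower, 3 were higher and 7 did not pass, beside 20.2% lower and 6.36% higher over all windows. Their median log2 fold change was -0.46, and -0.16 after loess normalization. Besides Cd81, the deepest losses were at Tnfrsf13c, the gene of the survival receptor BAFF-R (log2 fold change -1.27, adjusted p = 3.24e-18), Cd37, a tetraspanin (-0.84, adjusted p = 3.76e-10), and Fcgr2b, the inhibitory receptor for IgG (-0.82, adjusted p = 6.54e-04). Tnfrsf13c held 7.16, 7.35 and 8.44 CPM in knockout libraries and 22.3, 14.8 and 17.9 CPM in wildtype libraries. Cd180, a Toll-like receptor homologue (0.77, adjusted p = 2.20e-05), and Fcrl1, an Fc receptor-like activator (0.73, adjusted p = 3.97e-09), rose. Cd40 (0.00), which mTECs use themselves, Il7r (0.25) and Siglecg (-0.39) did not pass. After loess normalization Tnfrsf13c was at -0.81, Cd37 at -0.44 and Cd180 at 1.23, all still past the threshold. Under it 5 of the 18 were lower, and Fcgr2b, at -0.49, was not among them (adjusted p = 0.0562).

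**Figure D3:**
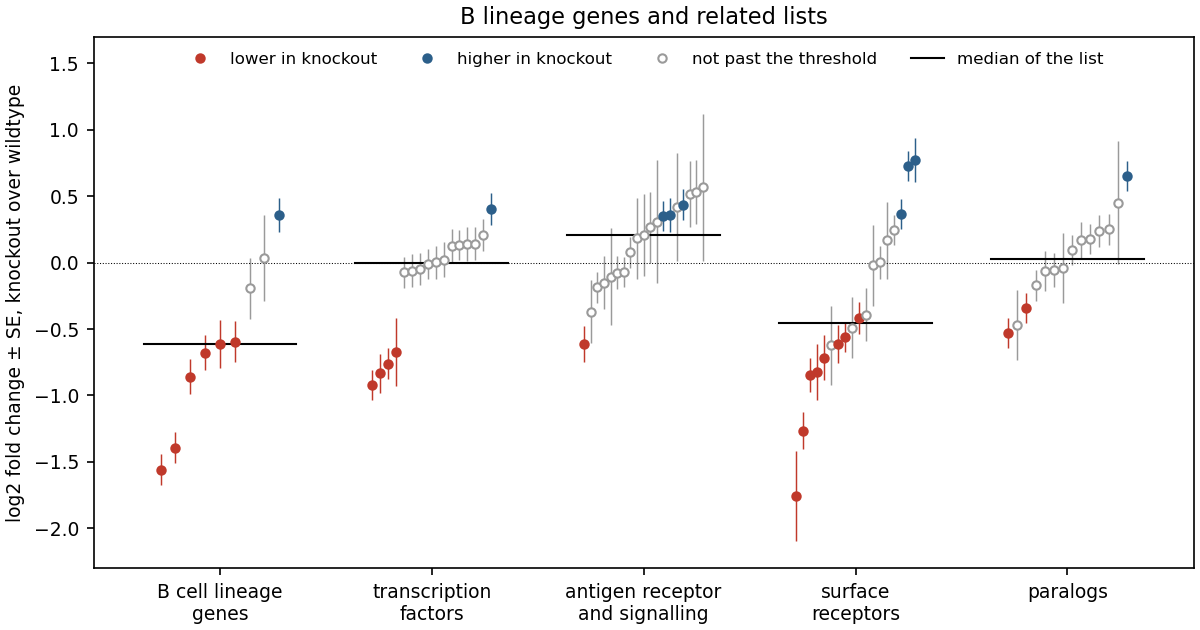
Log2 fold change of knockout over wildtype with bars of 1 SE for each tested window of the 9 B lineage genes, of 3 lists of other B lineage genes and of paralogs, with a line at each list's median. The medians of the B lineage genes at -0.61 and of the surface receptors at -0.46 lie below the dotted line at 0, and those of the other lists lie between -0.00 and 0.21; after loess normalization the first is -0.18 and the second -0.16.

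Paralogs are relatives of these genes that other tissues use. Of 14 tested, 2 were lower, 1 was higher and 11 did not pass (median log2 fold change 0.03), near the 20.2% lower and 6.36% higher of all windows. After loess normalization the counts were 4 lower and 6 higher. Ebf3, the relative of Ebf1 known from neurons and mesenchyme, held 74.6, 60.7 and 57.3 CPM in knockout libraries and 40.3, 45.4 and 37.1 CPM in wildtype libraries. It rose with no overlap of the groups (log2 fold change 0.65, SE 0.113, adjusted p = 8.64e-08), opposite to Ebf1, and passed under all 15 alternatives, as Ebf1 did. Ebf2, the relative active in brown fat, was at -0.17 and did not pass (adjusted p = 0.307). Of the Src family, Fyn (-0.53, adjusted p = 3.56e-05) and Fgr (-0.34, adjusted p = 0.0121, past under 10 of 15 alternatives) fell, while Src (-0.06) and Yes1 (0.24) did not pass.

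Around Ms4a1, the Ms4a family held 20 windows of membrane protein genes. Of 18 tested, 2 were lower, 0 were higher (edgeR at the same threshold) and 16 did not pass. Over all windows 20.2% were lower and 6.36% higher. Ms4a10 fell at -0.80 (adjusted p = 3.21e-09) and Ms4a18 at -0.67 (adjusted p = 3.24e-04), and after loess normalization Ms4a10 was at -0.39 (adjusted p = 0.0119) and Ms4a18 at -0.21 (adjusted p = 0.293). The family was little accessible as a whole, with medians of 1.98 to 2.84 CPM in knockout libraries and 2.23 to 2.60 CPM in wildtype libraries.

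Of 16 nearest neighbouring windows tested, 3 were lower, 1 was higher and 12 did not pass, shares near the 20.2% and 6.36% of all windows. Beside Ebf1, Rnf145 at a distance of 99.2 kilobases (log2 fold change 0.14) and Gm12159 at 499.8 kilobases (0.87, adjusted p = 0.126) did not pass. Cr1l, a complement regulator 45.1 kilobases from Cr2, was at 0.25 and did not pass. Beside Pax5, Zcchc7 rose (0.35, adjusted p = 0.0188), though not without knockout library 2 or wildtype library 1, and an unnamed window (gene ID 100503954) fell (-0.88, adjusted p = 1.10e-12). Blk was the exception with loss on both sides, at Fam167a (-1.13, adjusted p = 1.32e-20) at a distance of 18.2 kilobases and at Gata4 (-0.70, adjusted p = 7.07e-09), 171.9 kilobases away. The neighbours of Cd79a, Cd79b, Blnk and Fcer2a did not pass, with log2 fold changes between -0.31 and 0.25; Ms4a5 beside Ms4a1 was at 0.52 (adjusted p = 0.313).

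For each B lineage gene past the threshold, the windows most like it over the 6 libraries were sought among those within 2-fold of its mean level. They came from varied genes. Likeness was the root mean square difference of log2 CPM. Nearest to Ebf1 were Mep1a (0.059), an intestinal and kidney protease gene, Gm14399 (0.075) and Vegfc (0.095), a lymphatic growth factor gene. Nearest to Cr2 were Gm3558 (0.086), A930011G23Rik (0.089) and Radil (0.093), and to Cd79b Tafa5 (0.062), Tomm20l (0.075) and Serpine3 (0.086). Nearest to Pax5 were Car14 (0.115), E230016M11Rik (0.117) and Tdrd5 (0.121), to Fcer2a Gm12680 (0.062) and Gm20201 (0.083), and to Blk 1700120K04Rik (0.074), Ngb (0.087) and Creb3l3 (0.087). Nearest to Blnk were Gtf2i (0.028), Cnn3 (0.043) and Lzts2 (0.055). None of these was in the B lineage or paralog lists, which says little because each gene had 3497 to 5762 candidate windows.

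**Figure D4:**
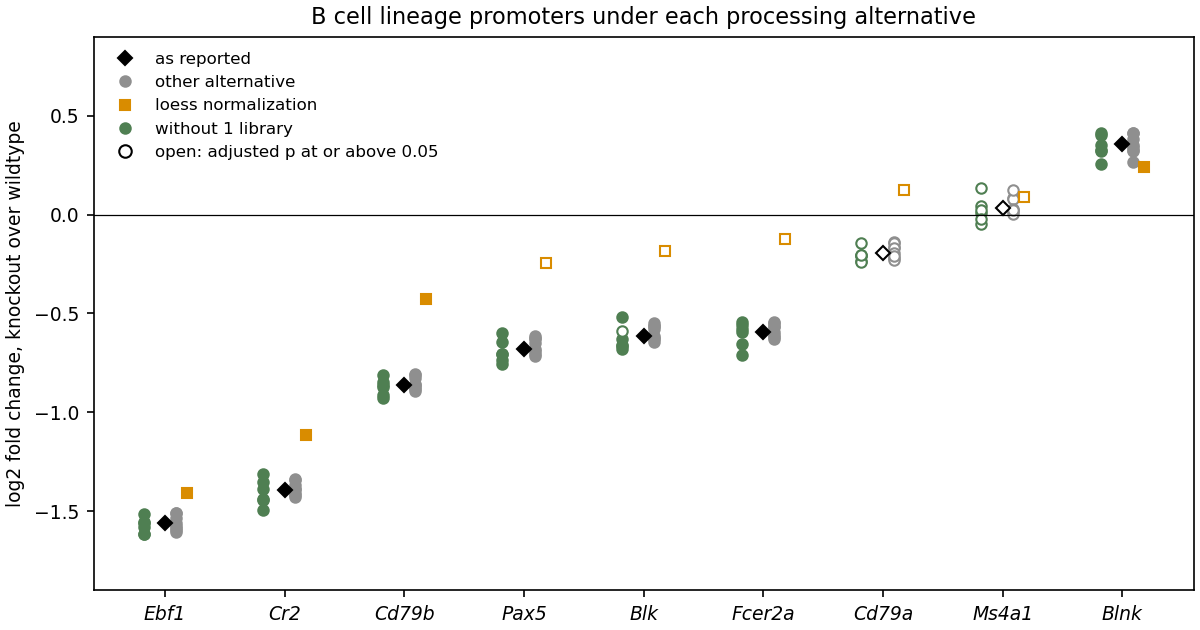
Log2 fold change of knockout over wildtype of the 9 genes as reported and under each alternative, with open symbols where the adjusted p was at or above 0.05. Ebf1, Cr2 and Cd79b stay filled throughout, loess normalization moves Pax5, Blk and Fcer2a to between -0.24 and -0.12 with open symbols, and Blk and Blnk each have 1 open symbol when a single library is left out.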

How the data were processed

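ATAC-seq reads over gene windows were compared between 3 Kat7 knockout and 3 wildtype mTEC libraries, which the design text calls biological replicates and whose counts differed beyond sampling noise within each group. The authors deposited whole-number counts per window, which came from featureCounts on mm10 per the submitters' processing notes. How reads were aligned, whether duplicates were removed and whether reads were shifted for the transposase offset is not given in the sources used here. Remaining duplicates can inflate single windows, while a shift of a few bases is small beside 5001 bases. Symbols were joined by gene ID from the libraries' own tables, whose counts equalled those of the series table in all 6.

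Windows were filtered with filterByExpr at its defaults, which kept all 9 genes, and fitted in R 4.3.3 with edgeR 4.0.16 (TMM, robust quasi-likelihood). Alternatives used limma 3.58.1, DESeq2 1.42.0, other scalings, filters, a replicate block and each library left out. The genes and lists were chosen with earlier results of these data known. Named genes are the 9, and of each B lineage and paralog list up to 6 past the threshold with the largest change and up to 3 not past it with the highest level per kilobase. Marker lists are given as counts with summed or median levels. Foxn1, H2-Aa, H2-Ab1, Cd52, Ptprc and Coro1a were named from them outside this rule, and other markers past the threshold were not named. Some genes that this rule selects are not reported here. The biological coefficient of variation was 10.9%. The test was checked on simulated counts in which few windows changed, in equal numbers up and down, without a shift by level. That simulation therefore does not address the choice of scaling.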

Additional observations from a re-analysis of the deposited data

How the results depend on the processing

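Signs and calls held for Ebf1, Cr2 and Cd79b under all 15 alternatives, with log2 fold changes of -1.62 to -1.41, -1.49 to -1.11 and -0.93 to -0.43. Pax5 ranged from -0.75 to -0.24, Fcer2a from -0.71 to -0.12, Blk from -0.68 to -0.18 and Blnk from 0.24 to 0.41. Loess normalization ended the calls of Pax5, Blk and Fcer2a, and the cause was not tested. Leaving out single libraries gave 4227 to 5709 lower and 689 to 3177 higher windows over all genes, 5 to 6 lower and 0 to 1 higher B lineage genes, 3 to 4 lower and 0 to 1 higher transcription factors, 1 to 3 lower and 1 to 4 higher signalling genes, 7 to 8 lower and 3 to 4 higher surface receptors, and 1 to 4 lower and 1 to 2 higher paralogs. The extremes of the higher windows came without wildtype library 1 (689) and without knockout library 1 (3177).

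Loess normalization gave 4880 lower and 4324 higher windows, 3 lower B lineage genes, 3 higher transcription factors, 2 lower and 6 higher signalling genes, 5 lower surface receptors, and 4 lower and 6 higher paralogs. The higher share of all calls was 47.0% under it and 35.6% with library totals, against 23.9% as reported. Library totals gave 2937 higher windows, 2 higher transcription factors, 2 lower signalling genes and 3 higher paralogs. A mean count of at least 50, which removed Ms4a1, gave 3937 higher windows, 5 higher transcription factors, 2 lower signalling genes and 4 higher paralogs. No filter gave 2 lower signalling genes and 2 higher paralogs. Limma-voom gave 4738 higher windows, 3 lower and 6 higher signalling genes, and 4 lower and 3 higher paralogs. Median-of-ratios factors and DESeq2 each gave 1 lower paralog.

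The sign turned only for genes that had not passed. Cd79a was at 0.13 and Plcg2 at 0.051 after loess normalization. Cd40 was at -0.028 with library totals, -0.11 after loess normalization, -0.035 with no filter, -0.048 with limma-voom, -0.00077 with the replicate block, -0.012 among windows sharing no base, and -0.088 to 0.063 with single libraries left out. With single libraries left out, Ms4a1 ranged from -0.046 to 0.13, Src from -0.21 to 0.014 and Spib from -0.16 to 0.022.

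With the replicate number of the labels as a replicate block, 5537 windows were lower and 2824 higher, 3 paralogs were higher, and the B lineage genes kept their calls. Deviations from the group means correlated at 0.374, 0.0284 and 0.389 between same-numbered libraries 1, 2 and 3. The values at numbers 1 and 3 were the highest between the groups, whereas knockout library 2 correlated best with wildtype library 3 (0.308). The main test did not take the numbers as pairs, and whether same-numbered libraries shared a batch was not tested. At 37 to 86 counts a library, the windows of Ms4a1 and Cd79a give standard errors of 0.323 and 0.231, and a change of the size seen at Fcer2a could be missed there. Windows report promoters and not distal elements.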
